A study of Mus musculus with 6 samples.

Results

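Mitochondrial ribosomal proteins are the nuclear-encoded proteins that, with ribosomal RNA made inside the organelle, form the ribosome of mitochondria. They were taken as every gene of the table whose symbol starts with Mrpl or Mrps and a digit, leaving out pseudogenes. This gave 77 of 13192 genes, 48 for the large subunit (Mrpl symbols) and 29 for the small subunit (Mrps symbols). RNA came from mouse cortex at postnatal day 25, from ribosomes pulled out of lysate with an antibody to an HA tag. The conditional Rheb knockout (Rheb cKO) has 3 libraries, whose titles give floxed Rheb alleles (floxp/floxp), the Ribo-HA allele (k/+) and Syn-Cre, a name used for Cre driven by the neuronal synapsin promoter. In the genotype field they appear as knockdown of Rheb. The 3 Control libraries carry the same floxed and Ribo-HA alleles, and their titles name no Cre. Whether their ribosomes were tagged without Cre is not stated, so the groups are compared as labelled. Rheb is a small GTPase that activates the growth-regulating kinase complex mTORC1.

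The authors pooled the libraries of a group into 1 FPKM per gene (fragments mapped, scaled to gene length and library size), so a value has no SD, and depth and library-to-library spread are unknown here. Log2 fold changes are given as Rheb cKO relative to Control, and a gene is called where the q-value that Cuffdiff gave in the authors' deposited table is under 0.05. Rheb itself stood at 9.20 FPKM in Rheb cKO and 22.7 FPKM in Control in the authors' deposited table (log2 fold change -1.30, q = 0.00161). The cell type label reads neuron. The 10 oligodendrocyte markers were nonetheless present in both groups, with a summed level of 1299 FPKM in Rheb cKO and 3610 FPKM in Control. All 10 were called lower, where 4.58% of all genes were. The summed level of 8 neuron markers was 3692 FPKM in Rheb cKO and 3415 FPKM in Control. Of these 8, 0 were called by Cuffdiff, with 8.72% of all genes called in both directions together. At an unadjusted p under 0.05, 3 were higher, with 11.5% of all genes as background. The part of these shifts in the folds below was not tested, and in such bulk precipitates fewer cells of a type and less RNA per cell cannot be told apart. No library of unprecipitated RNA is listed. A level here is therefore that in the precipitate, and the amount of an mRNA and its binding to tagged ribosomes cannot be told apart either.

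The mitochondrial ribosome translates the few messages of the mitochondrial genome, all of them for membrane subunits of the respiratory chain and ATP synthase. Its small subunit reads the mRNA and its large subunit joins the amino acids and passes the new chain to the inner membrane. Many of its proteins have counterparts in bacterial ribosomes, and the others are found in mitochondria only. Because every protein of the particle is imported from the cytosol, the mRNAs measured here are made in the nucleus and translated on cytosolic ribosomes. Genes for mitochondrial proteins are known targets of the transcription factors NRF1, GABP of the ETS family and YY1, and mTORC1 is known to act on them at the level of both transcription and translation.

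RefSeq promoters of build GRCm38.p6, from 250 bases before to 50 bases after a gene's start, were found for 68 of the 77 genes. The 4 printed here are those of the member that was called, of the member with the highest fold, of the most abundant member, and of a start region that a large and a small subunit gene share. Capitals mark the letters of the NRF1 motif, ETS (CCGGAAG) and YY1 (AANATGGCG), searched on both strands and each on its own, so that a base could count for more than 1 motif.
Mrpl36 (chr13:73330759-73331058, plus strand): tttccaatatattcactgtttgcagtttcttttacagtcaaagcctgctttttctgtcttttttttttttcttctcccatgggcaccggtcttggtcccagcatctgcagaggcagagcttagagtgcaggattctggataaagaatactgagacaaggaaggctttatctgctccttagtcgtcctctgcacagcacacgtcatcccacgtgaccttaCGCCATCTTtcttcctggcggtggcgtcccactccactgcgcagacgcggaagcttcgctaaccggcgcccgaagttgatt
Mrps5 (chr2:127587176-127587475, plus strand): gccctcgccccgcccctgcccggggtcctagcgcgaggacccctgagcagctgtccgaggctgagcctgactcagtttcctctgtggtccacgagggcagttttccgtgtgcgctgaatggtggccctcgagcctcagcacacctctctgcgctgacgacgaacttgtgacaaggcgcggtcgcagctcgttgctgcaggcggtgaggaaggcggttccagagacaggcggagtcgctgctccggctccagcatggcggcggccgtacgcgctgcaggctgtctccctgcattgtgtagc
Mrps21 (chr3:95871465-95871764, minus strand): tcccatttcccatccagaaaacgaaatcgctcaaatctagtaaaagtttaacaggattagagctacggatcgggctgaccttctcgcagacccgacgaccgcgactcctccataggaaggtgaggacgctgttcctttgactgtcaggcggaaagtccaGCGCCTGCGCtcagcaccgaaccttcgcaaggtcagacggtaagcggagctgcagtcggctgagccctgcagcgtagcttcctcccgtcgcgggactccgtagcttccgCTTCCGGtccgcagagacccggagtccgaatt
Mrps11 (chr7:78782881-78783180, plus strand): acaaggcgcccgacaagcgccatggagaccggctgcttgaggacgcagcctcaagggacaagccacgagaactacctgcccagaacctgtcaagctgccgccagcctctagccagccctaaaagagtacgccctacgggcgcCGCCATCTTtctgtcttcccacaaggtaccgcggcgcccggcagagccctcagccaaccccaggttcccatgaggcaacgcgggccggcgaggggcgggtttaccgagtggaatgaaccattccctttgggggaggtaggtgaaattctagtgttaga

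Mrpl36 holds the YY1 letters 31 bases before its start and neither other motif, and in Mrps5 none of these letters occur. Mrps21 holds NRF1 letters at 91 bases before the start and ETS letters from base 19 after it. The Mrps11 window holds YY1 letters, and by RefSeq it also spans the start of Mrpl46 on the other strand, 42 bases away. The GENCODE M21 annotation, used below for coordinates, puts the Mrpl46 start at 78783531, outside this window. Shares were counted by gene, and a gene with several promoters counted where any of them held the letters. ETS letters occurred in 25 of the 68 members with a promoter (36.8%), against 19.0% of the 9785 genes of the table with a promoter. NRF1 letters occurred in 13 (19.1%), against 11.3% of those genes, and YY1 letters in 10 (14.7%), against 5.83%. The Sp1 letters GGGCGG were in 34 (50%), against 69.6%, and the NF-Y letters CCAAT in 27 (39.7%), against 42.7%. The higher share of ETS letters was not particular to the members. Of 58 cytosolic ribosomal protein genes with a promoter 24 held ETS letters (41.4%), 5 NRF1 letters (8.62%) and 5 YY1 letters (8.62%). Members with ETS letters had a median log2 fold change of -0.14 (n = 25) and members without them -0.06 (n = 43). For NRF1 the medians were -0.04 with the letters (n = 13) and -0.11 without (n = 55), and for YY1 -0.14 with (n = 10) and -0.10 without (n = 58). For Sp1 they were -0.11 with (n = 34) and -0.08 without (n = 34), and for NF-Y -0.12 with (n = 27) and -0.07 without (n = 41).

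A run of pyrimidines at the start of an mRNA, the TOP motif, marks the messages of cytosolic ribosomal proteins, whose translation depends on mTORC1. A C followed by at least 4 pyrimidines, within 5 bases of an annotated start, was found in 17 of 68 members with a promoter (25%). It was found in 28 of 58 cytosolic ribosomal protein genes with a promoter (48.3%) and in 24.2% of genes of the table with a promoter. The 17 members with such a start had a median log2 fold change of -0.11, and the 51 without it -0.10. Annotated starts can lie some bases from the true ones, so these shares describe the annotation.

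As a set, the mitochondrial ribosomal protein transcripts lay slightly lower in the precipitates of Rheb cKO, with hardly any member called. Of 77 members, 57 had a fold below 0 (74.0%), against 45.4% of all genes with a finite fold. Their median log2 fold change was -0.11, and that of all genes was 0.03. Summed over the members, the level was 5040 FPKM in Rheb cKO and 5620 FPKM in Control, or 89.7% of Control. One member, Mrpl36, was called lower by Cuffdiff (1 of 77, 1.30%), where 4.58% of all genes were called lower. No member (0 of 77) was called higher, where 4.14% of all genes were. At an unadjusted p under 0.05, 10 members were lower (13.0%), with 9.73% of all genes as background, and 0 were higher, with 11.5% of all genes as background. Both shares of called members stood below those of the whole table, and the share at an unadjusted p was near it in the lower direction. At a q under 0.01, Mrpl36 was still the 1 member called lower (2.77% of all genes) and 0 were called higher (1.94%). At a q under 0.1, Mrpl36, Mrpl54 and Mrpl12 were lower (3 of 77, with 6.15% of all genes) and 0 were higher (6.26%). In both directions together, 8.72% of all genes were called at a q under 0.05. For 70 of the 77 members the q-value in the authors' deposited table was above 0.2.

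**Figure D1:**
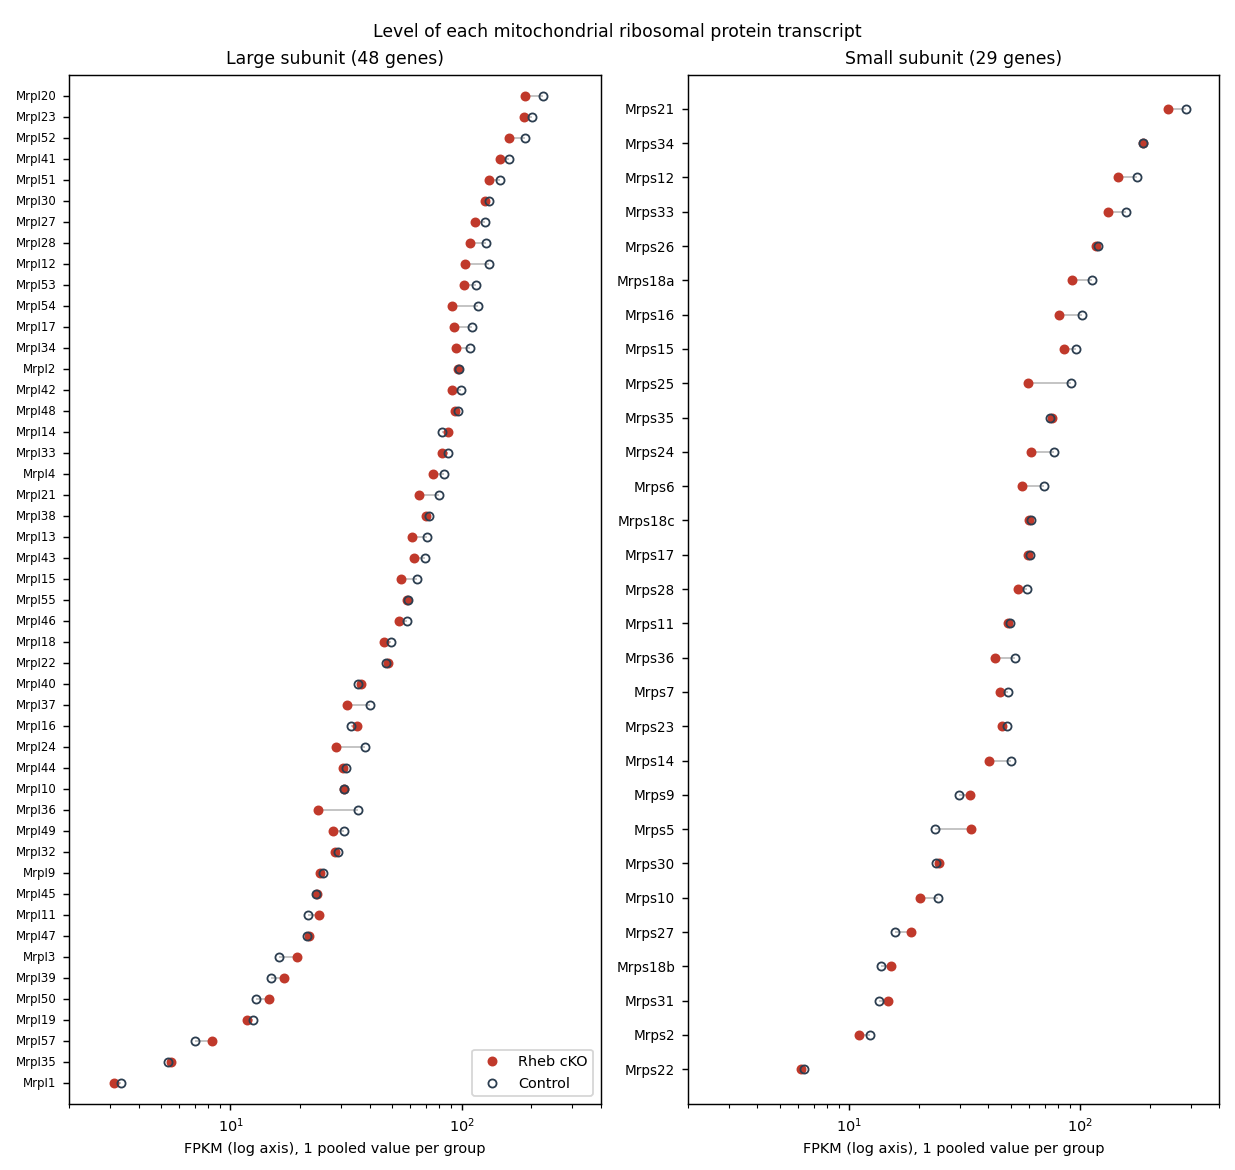
Level of each of the 77 mitochondrial ribosomal protein transcripts in FPKM on a log axis, with filled points for Rheb cKO, open points for Control, and large subunit genes on the left of small subunit genes. Points of a gene lie close together compared with the range between genes, from 3.12 to 239.8 FPKM in Rheb cKO and from 3.35 to 287.9 FPKM in Control.

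Large and small subunit genes had close medians. The 48 large subunit members had a median log2 fold change of -0.10 and 35 folds below 0, and the 29 small subunit members a median of -0.11 and 22 folds below 0. The medians differed by 0.0098 (large minus small), while the folds had an SD of 0.17 among large and 0.22 among small subunit members. That SD is the spread between genes and not between libraries. Summed levels were 3140 FPKM in Rheb cKO and 3480 FPKM in Control for the large subunit (90.2% of Control). For the small subunit they were 1900 FPKM in Rheb cKO and 2140 FPKM in Control (88.8% of Control). At an unadjusted p under 0.05, 6 large (12.5%) and 4 small subunit members (13.8%) were lower, with 9.73% of all genes as background.

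Symbols do not always give the place in the ribosome. In solved structures Mrps30 and Mrps18a sit in the large subunit, and Mrps36 is now known as a component of the alpha-ketoglutarate dehydrogenase complex. Mrps30 had 24.4 FPKM in Rheb cKO and 23.7 FPKM in Control (log2 fold change 0.04, q = 0.932, the authors' deposited table). Mrps36 had 42.5 FPKM in Rheb cKO and 52.3 FPKM in Control (-0.30, q = 0.193, the authors' deposited table). With members placed by structure, the mitochondrial ribosomal proteins of other symbols added and Mrps36 left out, the medians were -0.10 for the large and -0.12 for the small subunit.

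Mrpl36, the counterpart of bacterial protein L36 in the large subunit, was the called member. It stood at 23.9 FPKM in Rheb cKO and 35.6 FPKM in Control (67.2% of Control), a log2 fold change of -0.57 with q = 0.00625 in the authors' deposited table. It ranked 56 of 77 by mean level. The gene lies on the plus strand of chromosome 13 from 73328513 to 73332178 in GENCODE M21 (mm10). At that GENCODE start it overlaps by 29 bases the start of Ndufs6, a complex I subunit gene on the other strand. The stretch that the authors list for Mrpl36 begins further on, at 73331009, and ends at 73332175, with no other listed gene in it. The promoter printed above belongs to this later start, which RefSeq gives, and not to the one beside Ndufs6. Ndufs6 had 287 FPKM in Rheb cKO and 324 FPKM in Control (-0.18, q = 0.454, the authors' deposited table).

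The lowest and the highest fold belonged to small subunit members that were not called. Mrps25, a protein found in mitochondrial ribosomes only, had 59.4 FPKM in Rheb cKO and 91.2 FPKM in Control, the lowest fold (-0.62, test score -1.11, q = 0.264, the authors' deposited table). The test score of Mrpl36 was -2.17 in the authors' deposited table. Mrps5, the counterpart of bacterial protein S5, had 33.6 FPKM in Rheb cKO and 23.5 FPKM in Control, the highest fold (0.52, q = 0.250, the authors' deposited table).

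Next lowest were members of the tunnel exit and of the stalk, the flexible arm that recruits translation factors. Mrpl24, a protein at the exit of the nascent chain tunnel, had 28.6 FPKM in Rheb cKO and 38.1 FPKM in Control (-0.42, q = 0.209, the authors' deposited table). Mrpl54, a mitochondria-specific protein at the stalk, had 91.2 FPKM in Rheb cKO and 117.6 FPKM in Control (-0.37, q = 0.0858, the authors' deposited table). Mrpl12, the stalk protein that also binds the mitochondrial RNA polymerase, had 103.7 FPKM in Rheb cKO and 132 FPKM in Control (-0.35, q = 0.0815, the authors' deposited table). Mrpl54 and Mrpl12 had the smallest q-values of the members that were not called. The other stalk members did not share that size: over all 5 of them the folds ran from -0.37 to 0.16, with 3 below 0. Of the 7 tunnel exit members 4 had a fold below 0 (range -0.42 to 0.19), and of the 6 members of the central protuberance 5 did (range -0.14 to 0.04).

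At the high end after Mrps5 came Mrpl3, the counterpart of bacterial protein L3, with 19.5 FPKM in Rheb cKO and 16.2 FPKM in Control (0.27, q = 0.374, the authors' deposited table). Mrpl57, a small mitochondria-specific protein of the large subunit, had 8.34 FPKM in Rheb cKO and 7.04 FPKM in Control (0.24, q = 0.343, the authors' deposited table). Mrps27, a pentatricopeptide repeat protein, had 18.5 FPKM in Rheb cKO and 15.8 FPKM in Control (0.23, q = 0.385, the authors' deposited table). Mrpl39, a mitochondria-specific protein of the large subunit, had 17.1 FPKM in Rheb cKO and 15.0 FPKM in Control (0.19, q = 0.478, the authors' deposited table). All 5 members at the high end were expressed below the members' median level of 58.8 FPKM in Control.

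**Figure D2:**
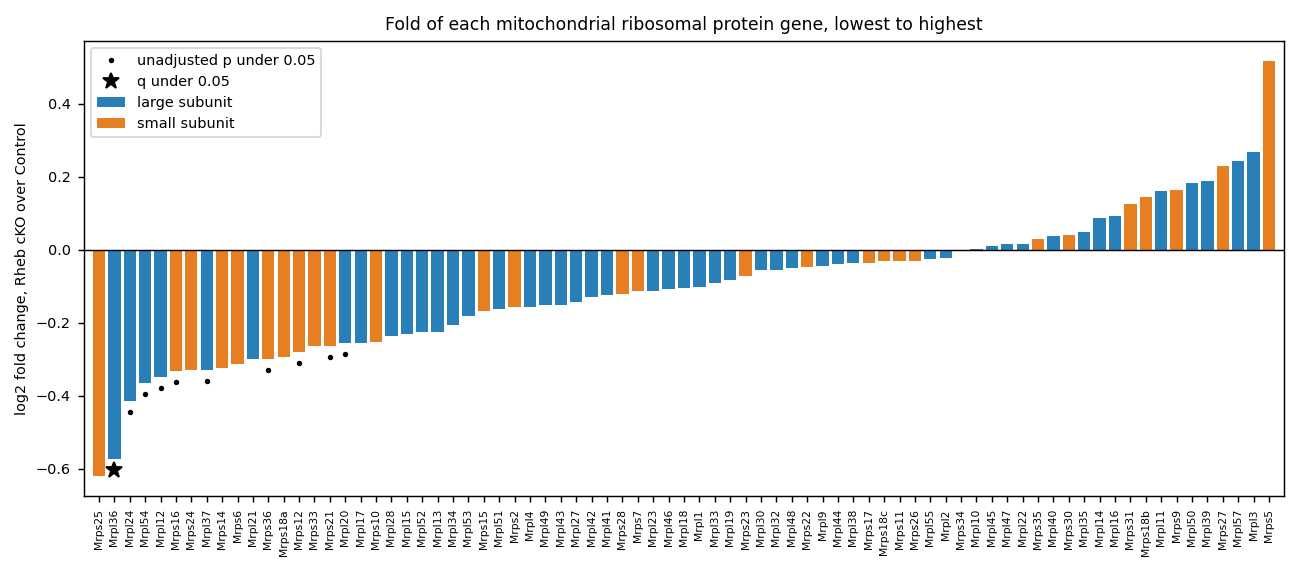
Log2 fold change, Rheb cKO over Control, of the 77 members from lowest to highest, coloured by subunit, with a star where q is under 0.05 and a dot where the unadjusted p is under 0.05. The star stands at Mrpl36, all marks are at folds below 0, and both subunits are spread over the whole range.

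For a grouping by bacterial counterpart, members were placed by structure, with Mrps18a and Mrps30 in the large subunit and Mrps36 left out. Mrps18a and Mrps18b, though related to bacterial protein S18, were counted as mitochondria-specific. The 16 small subunit members with a bacterial counterpart had 14 folds below 0 and a median of -0.16. The 10 mitochondria-specific ones had 6 below 0 and a median of -0.015. In the large subunit, 22 of 29 members with a bacterial counterpart and 14 of 21 mitochondria-specific members had a fold below 0, with medians of -0.10 and -0.11. The 3 relatives of bacterial protein S18 differed in level and fold. Mrps18a had 91.8 FPKM in Rheb cKO and 112.7 FPKM in Control (-0.30, q = 0.286, the authors' deposited table). Mrps18b had 15.2 FPKM in Rheb cKO and 13.8 FPKM in Control (0.15, q = 0.907, the authors' deposited table). Mrps18c, which holds the place of the bacterial protein, had 59.7 FPKM in Rheb cKO and 61.0 FPKM in Control (-0.03, q = 0.951, the authors' deposited table). None of the 3 was called.

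Levels differed between members by far more than between groups: the mean FPKM of the most abundant member was 81.6 times that of the least abundant. Mrps21, the counterpart of bacterial protein S21, led with 239.8 FPKM in Rheb cKO and 287.9 FPKM in Control (-0.26, q = 0.229, the authors' deposited table). Mrpl20, the counterpart of L20, had 188.1 FPKM in Rheb cKO and 224.7 FPKM in Control (-0.26, q = 0.203, the authors' deposited table). Mrpl23, at the tunnel exit, had 185.9 FPKM in Rheb cKO and 201 FPKM in Control (-0.11, q = 0.709, the authors' deposited table). These 3 lay below 0, while Mrps34, a mitochondria-specific small subunit protein, had 186 FPKM in Rheb cKO and 186.1 FPKM in Control (-0.00065, q = 0.999, the authors' deposited table). Mrpl52, the fifth by level, had 160.9 FPKM in Rheb cKO and 188 FPKM in Control (-0.22, q = 0.375, the authors' deposited table). The 3 least abundant were Mrpl1, with 3.12 FPKM in Rheb cKO and 3.35 FPKM in Control, Mrpl35, with 5.55 FPKM in Rheb cKO and 5.36 FPKM in Control, and Mrps22, with 6.16 FPKM in Rheb cKO and 6.37 FPKM in Control. FPKM is scaled to length, so these are levels per length, though the gene models behind them are not given.

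The shift was larger among members of high and middle level than among those of lowest level. Of the 25 members with the highest mean FPKM (85.1 to 263.8), 24 had a fold below 0 and the median was -0.18. The exception, named after its value was seen, was Mrpl14 at 0.09. In the same range of FPKM, 418 of 822 other protein-coding genes had a fold below 0, with a median of -0.0034. The 26 members of middle level (34.2 to 84.7) had a median of -0.11 and 22 folds below 0. In that range the median of 1498 other protein-coding genes was 0.017. Among the 26 members of lowest level (3.23 to 33.4), 11 had a fold below 0 and the median was 0.013, with 0.041 for 6281 other protein-coding genes in that range. Across the 77 members Spearman's rho between mean FPKM and fold was -0.49 (-0.55 for the large and -0.44 for the small subunit), and -0.047 across 12352 protein-coding genes. Genes share the same pooled libraries and are not independent replicates, so these are descriptions.

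Shorter transcripts tended to be the more abundant ones (rho -0.48 across 76 members with a coding transcript in GENCODE M21), with exceptions both ways. The 26 members with the shortest coding transcripts (463 to 1068 bases) had 24 folds below 0 and a median of -0.17. In that range 466 of 741 other protein-coding genes had a fold below 0, with a median of -0.094. The 25 longest (1962 to 7300 bases) had 14 folds below 0 and a median of -0.036. Of 8370 other genes in that range 3668 had a fold below 0, with a median of 0.041. Over all protein-coding genes rho between length and fold was 0.18, and over the members 0.31. With the linear trend of folds on log10 length and GC content over protein-coding genes removed, the median of the members was -0.052 and that of all genes 0.019.

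**Figure D3:**
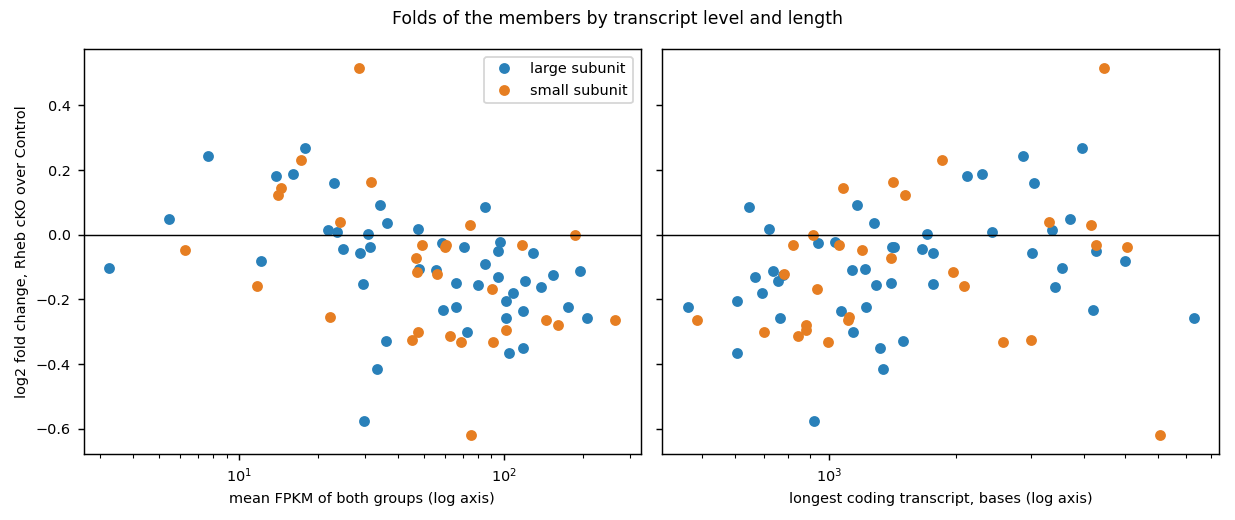
Log2 fold change, Rheb cKO over Control, of the members against the mean FPKM of both groups (left, 77 members) and the length of the longest coding transcript (right, 76 members), both on log axes and coloured by subunit. Members above 100 FPKM lie at or below 0, and most folds above 0 belong to members under 40 FPKM.

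Few of the other genes of mitochondrial gene expression were called, where 8.72% of all genes were called in both directions together. At an unadjusted p under 0.05, 9.73% of all genes were lower and 11.5% higher. The lists are small, and whether their counts differ from these shares was not tested. Medians of these lists lay between -0.13 and -0.0020. Of 6 mitochondrial ribosomal proteins with other symbols 5 had a fold below 0 (median -0.13). Aurkaip1, a small subunit protein also known as a partner of Aurora kinase A, was called lower, with 162.4 FPKM in Rheb cKO and 210.8 FPKM in Control (-0.38, q = 0.0437, the authors' deposited table). Dap3, the GTP-binding protein of the small subunit, had 135.8 FPKM in Rheb cKO and 149 FPKM in Control (-0.13, q = 0.789, the authors' deposited table), and was named after its value was seen. Of 26 genes for assembly of the mitochondrial ribosome and modification of its RNA, 0 were called by Cuffdiff in either direction, an unadjusted p under 0.05 was reached by 1 with a lower and 0 with a higher level, and the median was -0.11. Of 14 entries for mitochondrial translation factors 0 were called by Cuffdiff, an unadjusted p under 0.05 was reached by 1 with a higher and 1 with a lower level, and the median was -0.10. Of 23 genes for transcription and RNA handling in mitochondria 0 were called by Cuffdiff, and 0 passed an unadjusted p under 0.05; the median was -0.0020.

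Beside other large complexes, the sign of the shift matched complex I and was opposite to the cytosolic ribosome. Of 36 nuclear complex I subunits 31 had a fold below 0 (median -0.11), with 2 called lower and 0 higher. The 2 called lower are 5.56% of these subunits, near the 4.58% of all genes called lower. Of 47 cytosolic large subunit proteins 37 had a fold above 0 (median 0.12), with 6 called higher and 0 lower. Of 32 cytosolic small subunit proteins 23 had a fold above 0 (median 0.14), with 3 called higher and 0 lower. Of all genes, 4.14% were called higher. The median transcript length was 946 bases for the cytosolic large and 882.5 bases for the cytosolic small subunit. It was 977 bases for complex I and 1328 bases for the mitochondrial ribosomal proteins. With the trend on length and GC removed the cytosolic medians were 0.23 and 0.25, and that of complex I was -0.044. The mitochondrial ones were then -0.046 for the large and -0.070 for the small subunit. What part transcript length has in these folds was not tested. The difference between these lists was not tested, since the pooled values allow no test across libraries.

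**Figure D4:**
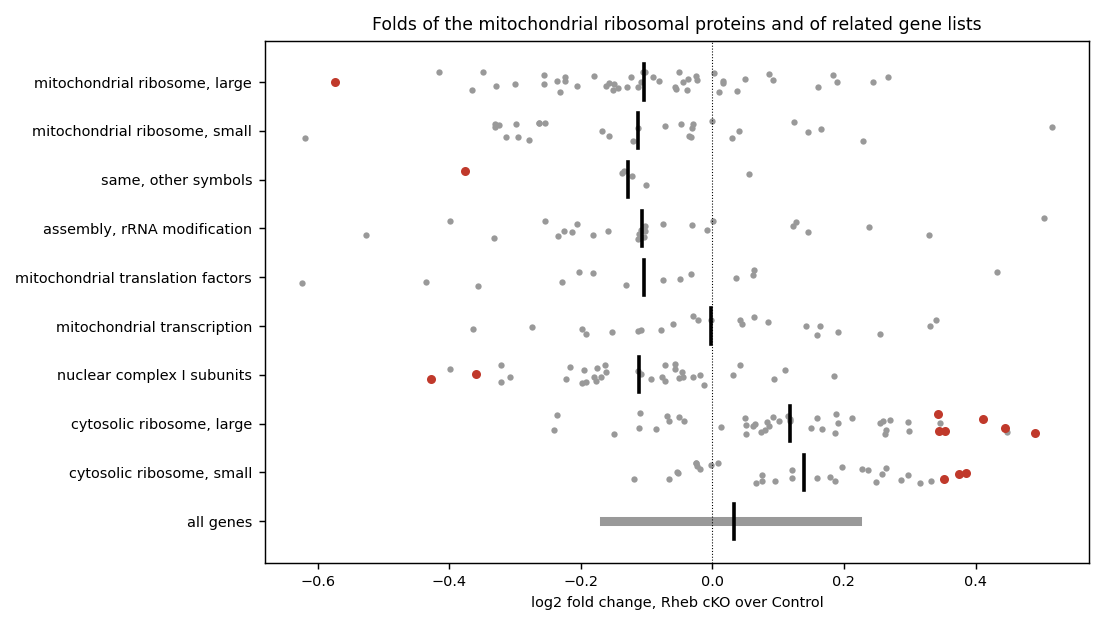
Log2 fold change, Rheb cKO over Control, of each gene (points, red where q is under 0.05) in the 2 subunits of the mitochondrial ribosome and in related lists, with black bars for medians and a grey bar for the central range (between the quartiles) of all genes at the bottom. Medians of the mitochondrial ribosome lie near -0.11 and those of the cytosolic ribosome between 0.12 and 0.14.

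The genes of the mitochondrial ribosome lie on 17 chromosomes, and many start close to a gene of the other strand. Of the 77 members 33 (42.9%) have a protein-coding gene on the other strand that starts within 1000 bases of their own start in GENCODE M21, against 15.7% of 12365 protein-coding genes of the table. Mrpl46 and Mrps11 are such neighbours of each other and share 1 stretch in the authors' table. Mrpl46, at the central protuberance, had 53.6 FPKM in Rheb cKO and 57.8 FPKM in Control (-0.11, q = 0.814, the authors' deposited table). Mrps11, the counterpart of bacterial protein S11, had 48.7 FPKM in Rheb cKO and 49.7 FPKM in Control (-0.03, q = 0.971, the authors' deposited table). These 2 were chosen for their position. In all, 27 members have exons that overlap a gene of the other strand and 8 overlap a gene of the same strand, and for these, reads of overlapping genes may not have been told apart. The entry listed as Mrpl33 carries a gene ID that GENCODE M21 gives to Gm43809, an overlapping gene, so its values (82.1 FPKM in Rheb cKO and 87.4 FPKM in Control) are uncertain.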

How the data were processed

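Per the labels' protocols, anti-HA precipitates of cortex gave the RNA, and a stranded mRNA kit made the libraries. TopHat2 2.1.0, Cuffdiff 2.2.1 and the build mm10 are named in the submitters' processing notes, without settings. The annotation, the strand setting and the scaling are steps not given in the sources used here. The deposited values, per the file headers, are 1 FPKM per gene and group, a log2 fold change (Rheb cKO over Control, no pseudocount), a signed test score, a p-value and a q-value. Depth is unknown, so no count-based interval is given. Nothing says that libraries come from separate animals, so q-values may measure only the spread between libraries.

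All 13192 genes had test status OK. Genes listed at 0 (5 in Rheb cKO and 12 in Control, 0 of them members) lack a finite fold and enter no median. Gene IDs were matched to GENCODE M21 (the build of mm10) for coordinates, overlaps, and the length and GC of the longest coding transcript; all 77 members matched, 76 under the same symbol. Promoters are from RefSeq. Folds were regressed on log10 length and GC over 12352 protein-coding genes. The members and lists were chosen with earlier results of these data known. Named are called members, the 5 highest and 5 lowest folds, the 5 most and 3 least abundant members, the S18 relatives, Mrps30, Mrps36, called genes of the mitochondrial lists and Rheb; others are marked. Marker lists of astrocytes, microglia and endothelium had medians of -0.15 (7 genes), 0.40 (5) and -0.27 (2). Of the astrocyte markers S100b (-0.85) and Aqp4 (-0.54) were called lower and Gfap (0.61) higher in the authors' deposited table. Of all genes, 4.58% were called lower and 4.14% higher. In the other 2 lists 0 were called by Cuffdiff. There, 1 microglia marker was higher at an unadjusted p under 0.05, as were 11.5% of all genes. The trend and adjustment steps were tested on simulated data. Tables were computed in Python 3.11.15 with pandas 2.3.3, numpy 2.4.6 and scipy 1.17.1, and plots drawn with matplotlib 3.10.9.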

Additional observations from a re-analysis of the deposited data

How the results depend on the processing

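No paired analysis was possible because the values are pooled by group and carry no library of their own, and for the same reason no replicate could be left out. The count of members called lower, 1 at a q under 0.05, was 1 at a q under 0.01, 3 at a q under 0.10 and 10 at an unadjusted p under 0.05. It was 2 with proteins of other symbols added and Mrps36 left out. It was 1 with the adjustment recomputed over the table or over genes whose mean FPKM reached 1. In all of these settings 0 members were called higher. The median log2 fold change of the members, -0.11, was -0.16 as the ratio of summed FPKM and -0.052 with the trend on length and GC removed. For the large subunit removal of the trend gave -0.046, and for the small subunit the ratio of sums gave -0.17. Pseudocounts, filters on low values, the mean in place of the median and scaling to the same total moved each of these medians by less than 0.05. Centring on the median of all genes, which stood at 0.03, also moved them by less than 0.05. Of 125 values of 25 named genes under 5 settings 19 moved by 0.05 or more, 18 of them with the trend removed. The 3 called genes kept their sign in all 5 settings; with the trend removed Mrpl36 stood at -0.49 and Aurkaip1 at -0.28, and with 1 added to each FPKM Rheb stood at -1.21. With the trend removed 4 genes that were not called changed sign: Mrpl35 to -0.0091, Mrps30 to -0.0056, Mrps18c to 0.028 and Mrps34 to 0.13. Mrps34, at -0.00065, also changed sign when scaled to the same total. With pooled values and unknown depth, a shift of this size in a single member could not be told from library spread.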

Other observations

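Many mitochondrial ribosomal protein genes start head to head with a gene of the other strand. Of 30 such pairs with both genes measured, 1 of them the pair of Mrpl46 and Mrps11, 13 had both folds below 0, 5 had both above 0 and 12 had folds of opposite sign. Of the 29 neighbours that are not mitochondrial ribosomal proteins 15 had a fold below 0, against 45.4% of all genes with a finite fold. Their median log2 fold change was -0.017. Among them 0 were called by Cuffdiff, with 8.72% of all genes called in both directions together. An unadjusted p under 0.05 was reached by 2 of the 29, with 9.73% of all genes lower and 11.5% higher at that threshold. Sars2, the mitochondrial seryl-tRNA synthetase and neighbour of Mrps12, had 7.65 FPKM in Rheb cKO and 8.96 FPKM in Control (-0.23, q = 0.534, the authors' deposited table). Mrps12, the counterpart of the bacterial decoding protein S12, had 144.9 FPKM in Rheb cKO and 175.9 FPKM in Control (-0.28, q = 0.185, the authors' deposited table). Fau, a cytosolic ribosomal protein gene next to Mrpl49, had 1318 FPKM in Rheb cKO and 1165 FPKM in Control (0.18, q = 0.408, the authors' deposited table). Mrpl49 had 27.8 FPKM in Rheb cKO and 30.9 FPKM in Control (-0.15, q = 0.703, the authors' deposited table). These pairs were chosen after their values were seen.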
